A study of Mus musculus with 360 samples.

Results

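The data described here are single cells sorted from the cochleae of adult mice in which 3 hair cell transcription factors were switched on in supporting cells, and the question is how the few cells of that genotype that the authors placed in control-type clusters differ from those they placed in reprogrammed clusters. All animals carried Fbxo2CreERT2, a tamoxifen-inducible Cre driven from the Fbxo2 locus, and Rosa26-tdTomato, a red reporter switched on by Cre. The GAP animals also carried Rosa26-GAP, which adds Gfi1, Atoh1 and Pou4f3 after recombination, and the control animals did not. Tamoxifen was given at 3 weeks of age to both genotypes, and cells were taken at 5 weeks, dissociated with papain, sorted on tdTomato and EpCAM, and made into libraries one well at a time with unique molecular identifiers (UMIs).

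The deposited table holds 360 cells, 180 of each genotype, and the authors gave 341 of them 1 of 9 clusters. The members were 140 GAP cells. Of these, 15 stood in 4 clusters that the authors named for wild-type (WT) cells and that hold most control cells, clusters 0, 3, 4 (WT Supp Cells) and 6, and are called unresponsive cells here. The others stood in cluster 1 (54 cells), cluster 2 (51 cells) and cluster 7 (20 cells), named for reprogrammed supporting, hair and again supporting cells, and are called reprogrammed cells. The control cells of clusters 0, 3, 4 and 6, 78 in letter A and 80 in letter B, served as the reference and are called control cells. GAP cells of clusters 5 and 8 (13 and 10 cells) and 17 GAP cells with no cluster were left out of these sets. The letters in the column names, A or B for control and C or D for GAP, are read here as plates. Unresponsive and reprogrammed cells share letters C and D, while against control cells the genotype and the letter cannot be told apart. Since animals are not named, a genotype is 1 sample here. No test between cells is given, and every interval is an exact 95% interval that covers counting error only.

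Supporting cells surround the sensory hair cells of the organ of Corti, hold the potassium channels and gap junctions that clear potassium, and secrete parts of the tectorial membrane. Atoh1 starts hair cell differentiation, and Pou4f3 and Gfi1 act with it and after it in hair cell maturation and survival. Notch signalling holds supporting cells in their fate, with Jag1 and Jag2 as ligands, Notch1 as a receptor, Lfng and Mfng as sugar transferases that tune the receptor, and Hey1, Heyl and Hes5 as target repressors.

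The unresponsive cells made up 10.7% of the 140 GAP cells (15 cells, Clopper-Pearson interval 6.12% to 17.1%). The share was 8.06% in letter C (5 of 62 cells) and 12.8% in letter D (10 of 78 cells), and the interval of either letter holds the share of the other. The 15 cells were spread over all 4 control-type clusters, with 4 in cluster 0, 5 in cluster 3, 4 in cluster 4 and 2 in cluster 6. Depth differed between the sets. The unresponsive cells held 9593 to 41050 UMIs each with a median of 22137, the reprogrammed cells had a median of 28878, and the control cells had a median of 19822. Levels below are CPM, the summed UMIs of a gene in a set scaled to 1000000 UMIs of that set. With 343415 UMIs in the 15 unresponsive cells together, a gene with 0 UMIs there may stand at up to 8.74 CPM (3 counts over the set). The corresponding limit is 0.842 CPM in reprogrammed and 0.871 CPM in control cells.

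Every unresponsive cell carried at least 1 UMI of Atoh1, Gfi1 or Pou4f3, while all control cells but 1 carried none. The 3 genes together stood at 163.1 CPM in unresponsive cells, 1793 CPM in reprogrammed cells and 0.29 CPM in control cells. In single unresponsive cells the sum ran from 41.3 to 1137 CPM with a median of 140 CPM, and in reprogrammed cells from 78.2 to 4789 CPM with a median of 1482 CPM. The sets overlapped: 48 reprogrammed cells were at or under the highest unresponsive cell. Of these 48 cells, 13 were in cluster 1, 19 in cluster 2 and 16 in cluster 7. Among unresponsive cells 6 carried UMIs of 1 of the genes, 4 of 2 and 5 of all 3, against 52 of 54 reprogrammed cells of cluster 1, 45 of 51 of cluster 2 and 6 of 20 of cluster 7 with all 3. Such counts move with depth. After each cell was thinned to 8000 UMIs, Atoh1 had a UMI in 26.7% of unresponsive cells (0 of 5 in letter C, 4 of 10 in letter D) and in 91.2% of reprogrammed cells, against 80% and 96.8% before thinning. Thinned Pou4f3 was in 40% and 87.2% of cells, and thinned Gfi1 in 26.7% and 68.8%.

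Atoh1, the factor that starts hair cell differentiation, was at 93.2 CPM in unresponsive cells (32 UMIs in 12 of 15 cells), 925.5 CPM in reprogrammed cells and 0 UMIs in control cells. Single cells ran from 0 to 1034 CPM with a median of 82.8 CPM in the unresponsive set and up to 2700 CPM with a median of 729.7 CPM in the reprogrammed set. Pooled Atoh1 was 9.93-fold higher in reprogrammed cells (interval 7.02 to 14.6). A single cell of letter D, in well 36 and cluster 3, held 10 of the 32 UMIs, and without it the unresponsive level was 65.9 CPM, 14.04-fold under the reprogrammed level. The fold was 17.7 within letter C and 7.34 within letter D, and 5.40 against cluster 7 alone. Pou4f3, which hair cells need for survival, was at 46.6 CPM in unresponsive and 638.6 CPM in reprogrammed cells, a 13.7-fold difference (8.42 to 24.02). Gfi1, a repressor that acts in hair cell maturation, was at 23.3 CPM (8 UMIs in 7 cells) against 229 CPM, a 9.84-fold difference (4.97 to 22.9). Against control cells, Atoh1 was at least 107.01-fold higher in unresponsive cells and Pou4f3 at least 53.5-fold higher, both set against 3 counts over the control set. Whether these UMIs came from the allele or from the endogenous genes cannot be read from counts over exons.

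**Figure D1:**
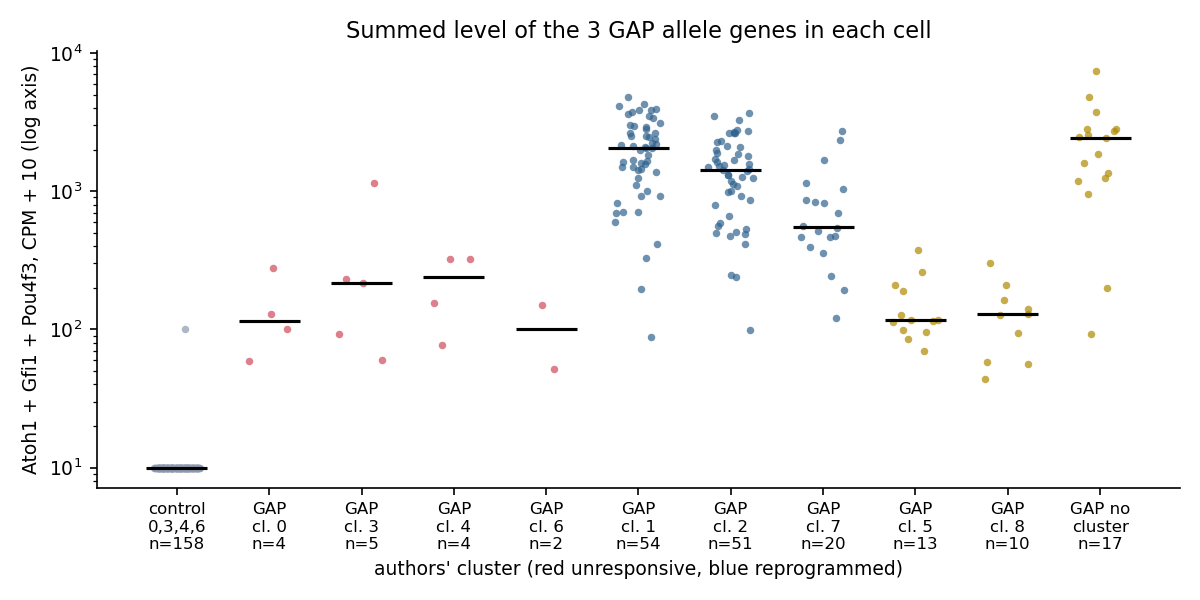
Each point is a cell, with the summed CPM of Atoh1, Gfi1 and Pou4f3 plus 10 on a log axis, by the authors' cluster; black bars are medians, grey is control, red unresponsive, blue reprogrammed and yellow the other GAP cells. All 15 unresponsive cells sit above 0, most of them under the bulk of clusters 1 and 2, and cluster 7 lies between.

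Fbxo2, whose locus drives the Cre, was at 722 CPM in unresponsive cells and 719 CPM in control cells, and at 446 CPM in reprogrammed cells. It had a UMI in all 15 unresponsive cells, from 297 to 1486 CPM with a median of 519 CPM, within the range of control cells (up to 2722 CPM, median 656.5 CPM). Epcam, whose protein was sorted on along with tdTomato, was at 250 CPM in unresponsive, 167.4 CPM in reprogrammed and 191 CPM in control cells. No unresponsive cell was outside the control range for either gene.

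Across the 10180 genes at 10 CPM or more in unresponsive or reprogrammed cells, 2299 (22.6%) were higher in reprogrammed cells by 2-fold or more and 1253 (12.3%) were higher in unresponsive cells by as much, on the scale of CPM + 1. The median log2 ratio over all of them was -0.13. The clusters were made by the authors from these same counts, so the differences between both sets are partly what placed the cells, and they are given as a description.

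The genes highest in unresponsive cells relative to reprogrammed cells, among those seen in enough cells and in the same direction in letters C and D, were mostly genes that control supporting cells also express. Kcnj16, an inward rectifier potassium channel, was at 3101 CPM in unresponsive, 240 CPM in reprogrammed and 2099 CPM in control cells, 12.9-fold higher than in reprogrammed cells (11.8 to 14.1). Its single-cell levels ran from 0 to 5618 CPM with a median of 3094 CPM, and 12 of 15 unresponsive cells stood above the highest reprogrammed cell at 2241 CPM. Ceacam16, a tectorial membrane protein, was at 443 CPM against 30.6 CPM in reprogrammed cells and 935.5 CPM in control cells, and 10 of 15 unresponsive cells had a UMI.

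Fgf9, a secreted growth factor, was at 265 CPM against 19.7 CPM in reprogrammed and 310.3 CPM in control cells. Anxa9, an annexin, was at 142.7, 10.1 and 239 CPM in the same order. Ppargc1a, a coactivator of mitochondrial biogenesis, was at 151.4 CPM against 6.46 CPM in reprogrammed cells, and control cells had 89.1 CPM. Lox, which cross-links collagen, was at 87.4 CPM against 5.90 CPM, and Cemip, which takes part in hyaluronan breakdown, at 309 CPM against 31.7 CPM. Slc5a11, Slc4a8, Prdm12, Tg, Parp3 and Fads3 completed the group together with Prkcdbp, which codes for a caveolar coat protein. Prkcdbp was at 521 CPM in unresponsive cells and also above control cells (142.8 CPM), 3.65-fold (3.06 to 4.34), in 9 of 15 cells.

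At the other end, the genes highest in reprogrammed cells had 0 or 1 UMI in the unresponsive set. Pvalb, the calcium buffer parvalbumin of hair cells, was at 82.6 CPM in reprogrammed cells, with a UMI in 27.2% of them, and had 0 UMIs in both unresponsive and control cells. The reprogrammed level was at least 9.45-fold above the limit for 0 counts in the unresponsive set. Kcnh6, a voltage-gated potassium channel, was at 271.5 CPM in reprogrammed cells (73.6% of cells) and had 1 UMI in unresponsive cells, a 93.2-fold ratio with an interval of 16.7 to 3687. Mfng was at 180 CPM in reprogrammed cells (84.8% of cells) with 1 UMI in unresponsive and 0 in control cells, a ratio of 61.9 (11.1 to 2449). Serping1, an inhibitor of complement C1, Pcp4l1, Ap3b2, Sdk2, Mlf1, Slc43a3 and Tdrkh followed with 0 UMIs in unresponsive cells and 46.05 to 78.4 CPM in reprogrammed cells. Dedd2, Pcdh17, Cep295 and Enc1 also had 0 UMIs in unresponsive cells, but control cells held them at 14.8 to 56.02 CPM.

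Summed over all listed members, the 3 hair cell lists were lower in unresponsive than in reprogrammed cells, by differing amounts. The 36 genes of the hair bundle and of mechanotransduction summed to 1957 CPM in unresponsive, 5611 CPM in reprogrammed and 1503 CPM in control cells. The 22 genes of the hair cell synapse, calcium buffers and channels summed to 763 against 4526 CPM, and the 16 fate and transcription genes outside the allele to 1211 against 1844 CPM. Counts and medians below are over members at 10 CPM or more in either set. A member that was under 10 CPM in one set and passed through the other had its direction largely set by that filter, so these counts are a description.

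Of 31 measured bundle genes, 26 were at least 2-fold lower in unresponsive than in reprogrammed cells and 0 were higher, with a median log2 ratio of -2.16 beside -0.13 over all genes. Of the 26, 11 had passed the filter through reprogrammed cells alone, and among the 20 genes at 10 CPM or more in unresponsive cells 15 were lower. Myo6, a motor at the base of stereocilia, was at 285 CPM in unresponsive, 1279 CPM in reprogrammed and 164.6 CPM in control cells. Its single unresponsive cells ran from 0 to 718 CPM with a median of 208 CPM, and 80 reprogrammed cells were above the highest of them. Triobp, which bundles actin in stereociliary rootlets, was at 207, 795 and 203 CPM in that order, and Cib2, a subunit of the mechanotransduction complex, at 43.7, 315 and 14.5 CPM. Pls1, an actin bundler, and Lmo7 did not share this order: Pls1 was at 344 CPM in unresponsive and 266.5 CPM in reprogrammed cells, and Lmo7 at 262 and 282.5 CPM.

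Of 15 measured synapse, buffer and channel genes, 14 were at least 2-fold lower in unresponsive cells and 0 were higher (median -2.17). Of the 14, 5 had passed through reprogrammed cells alone. Otof, needed for exocytosis at the hair cell synapse, was at 20.4 CPM in unresponsive cells (7 UMIs in 6 cells), 153.6 CPM in reprogrammed cells and 0 UMIs in control cells. Pclo, a presynaptic scaffold, was at 104.8 CPM against 449 CPM, and Pcp4, a calmodulin regulator, at 29.1 CPM against 303.6 CPM. Of 10 measured fate and transcription genes outside the allele, 8 were lower and 0 higher (median -3.56), and 5 of the 8 had passed through reprogrammed cells alone. Eya1, an otic regulator that control cells hold at 432 CPM, was within 2-fold, at 643.5 CPM in unresponsive and 581 CPM in reprogrammed cells. Jag2, the ligand that young hair cells show to their neighbours, was at 14.6 CPM in unresponsive and 204 CPM in reprogrammed cells. The list medians depended on the reprogrammed cells used: against cluster 7 alone they were -0.97 for the bundle, -0.48 for the synapse and -0.81 for the fate list. With no filter on level the fate median was -1.84, and with a pseudocount of 10 CPM it was also -1.84.

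The number of the 74 listed hair cell genes with a UMI in a cell also placed the sets. After each cell was thinned to 8000 UMIs, unresponsive cells showed 6 to 17 with a median of 11, reprogrammed cells 10 to 44 with a median of 18, and control cells 3 to 15 with a median of 8. Without thinning the medians were 17, 27 and 11. The ranges overlapped, and the unresponsive median stood between the other medians.

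Of 16 general supporting cell genes, 15 were within 2-fold of reprogrammed cells and 14 within 2-fold of control cells. Over all 10180 genes, 12.3% were at least 2-fold higher in unresponsive than in reprogrammed cells and 22.6% lower. Of the 16, 1 was higher and 0 were lower (median 0.50). Within letters C and D that median was -0.01 and 0.16, both under the pooled one. Against control cells the median was -0.06, with 2 genes at least 2-fold higher and 0 lower. Those 2 were Sox2 and Aqp4, with UMIs in 2 and 3 unresponsive cells, and Sox2 had passed the filter through unresponsive cells alone. The gene 2-fold above reprogrammed cells was Kcnj10, a potassium channel, at 740 CPM in unresponsive, 258 CPM in reprogrammed and 935 CPM in control cells. Sox10 was at 1115, 729 and 1474 CPM in the same order, and Gjb2, the gap junction protein connexin 26, at 1066, 799 and 1355 CPM. S100a1 went the other way, at 7542 CPM in unresponsive, 8857 CPM in reprogrammed and 4795 CPM in control cells.

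Pooled over letters, marker lists of narrower supporting cell classes had medians from -0.32 to -0.02. Pillar and Deiters genes had a median of -0.21 (1 of 9 higher, 4 lower), inner sulcus and tectorial membrane genes -0.02 (2 of 12 higher, 3 lower), and genes of Hensen, Claudius and outer sulcus cells -0.32 (3 of 8 higher, 4 lower). Of these lower genes 1, 2 and 3 in that order had passed the filter through reprogrammed cells alone. Members within a list went both ways. Slc26a4, the anion exchanger pendrin, was 3.41-fold higher in unresponsive than in reprogrammed cells (2.98 to 3.90) at 839 CPM, near the 939 CPM of control cells. Otog, the tectorial membrane protein otogelin, was 2.81-fold higher (2.54 to 3.10) at 1500 CPM. Of the 320 CPM of Lrp2, 91.8% came from 1 cell. In the other direction, the matricellular protein gene Sparcl1 was at 192 CPM in unresponsive and 501 CPM in reprogrammed cells, and Bmp4, a secreted growth factor, had 0 UMIs against 24.7 CPM. Tectb, the tectorial membrane protein beta-tectorin, was at 29.1 against 106.7 CPM, and the collagen gene Col9a2 at 8.74 against 51.7 CPM.

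**Figure D2:**
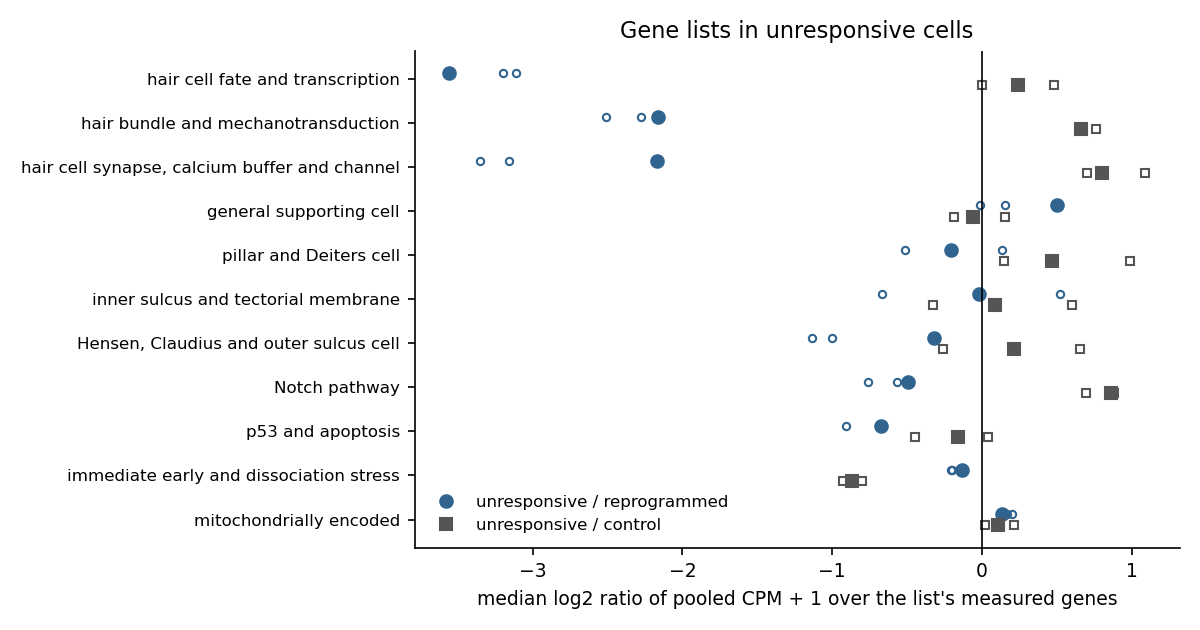
Filled symbols give the median log2 ratio of CPM + 1 over the measured genes of each list, for unresponsive against reprogrammed cells (blue circles) and against control cells (grey squares); small open symbols repeat the median within each GAP letter, or against each control letter, with its own measured genes. The 3 hair cell lists lie at -2.16 to -3.56 against reprogrammed cells and at 0.24 to 0.80 against control cells, and the 4 supporting cell lists lie at -0.32 to 0.50 and -0.06 to 0.47.

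To place the unresponsive cells between both references, 2 gene sets were chosen without using them. An induced set held 64 genes at 100 CPM or more in reprogrammed cells and at most 10% of that level in control cells. A resident set held 17 genes at 100 CPM or more in control cells and at most 10% of that in reprogrammed cells. The most abundant induced genes were Ccer2, the growth factor Mdk, the zinc transporter Slc39a8, Tmem255b, Atoh1 and the serine synthesis enzyme Psat1. The most abundant resident genes were Fxyd6, a regulator of the sodium pump, the fatty acid elongase Elovl1, Ceacam16, the kinase Mylk, the phosphatase inhibitor Ppp1r1b and the matrix protein Ltbp2.

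The 250 bases before the start of the leading gene of each set are shown because the E-box CAGCTG, a binding motif of the class Atoh1 belongs to, can be looked for there. They are from RefSeq, build GRCm38.p6, both on the plus strand, Ccer2 at chr7:28755924-28756173 and Fxyd6 at chr9:45369935-45370184, with the motif in capitals.
Ccer2: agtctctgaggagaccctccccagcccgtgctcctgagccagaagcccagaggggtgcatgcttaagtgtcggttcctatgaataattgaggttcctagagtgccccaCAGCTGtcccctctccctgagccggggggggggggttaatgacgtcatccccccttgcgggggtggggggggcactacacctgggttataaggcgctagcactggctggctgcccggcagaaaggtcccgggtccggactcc
Fxyd6: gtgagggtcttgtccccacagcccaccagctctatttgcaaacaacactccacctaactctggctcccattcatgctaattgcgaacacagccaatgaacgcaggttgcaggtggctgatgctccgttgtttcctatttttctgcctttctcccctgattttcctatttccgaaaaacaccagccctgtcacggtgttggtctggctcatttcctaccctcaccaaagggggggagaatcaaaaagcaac
The motif reads the same on both strands, stands once in the Ccer2 window and is not among the letters of the Fxyd6 window. It was in 13% of all 32851 windows of this length, in 13 of 62 windows (20.97%) of the 44 induced genes with an entry, and in 1 of 17 windows of the 14 resident genes with an entry. A match of letters is no binding site, and these shares were not tested.

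The induced set summed to 4214 CPM in unresponsive cells, 23401 CPM in reprogrammed cells and 710 CPM in control cells. Unresponsive cells thus held 18.01% of the reprogrammed level (17.1% to 18.97%), 18.7% in letter C and 17.5% in letter D. Single unresponsive cells ran from 2645 to 6958 CPM with a median of 3784 CPM, reprogrammed cells from 5569 to 40324 CPM with a median of 22241 CPM, and control cells up to 3003 CPM. In single cells, 4 reprogrammed cells were at or under the highest unresponsive cell, and 13 of 15 unresponsive cells were above the highest control cell. The genes were chosen for their difference between both references, and the clusters were made from the same counts. This separation was thus partly set in advance and is a description. All 64 genes had a UMI in the unresponsive set and 62 of them stood above their control level, which the choice had kept low.

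Ccer2 was at 245 CPM in unresponsive, 2789 CPM in reprogrammed and 1.45 CPM in control cells. Its single unresponsive cells ran from 0 to 594 CPM with a median of 178.995 CPM and 14 of 15 had a UMI, while 3.16% of control cells did. Tmem255b was at 177.6 CPM with a UMI in all 15 unresponsive cells, against 1069 CPM in reprogrammed and 2.61 CPM in control cells. Mdk was at 165.98 CPM, also with a UMI in all 15 cells, against 1751 and 17.4 CPM.

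The resident set summed to 3215 CPM in unresponsive cells, 6632 CPM in control cells and 303 CPM in reprogrammed cells. The unresponsive level was 48.5% of the control level (45.6% to 51.5%) and 55.4% when control clusters were weighted to the makeup of the 15 cells. The percent depended on which genes were called resident: with sets chosen against cluster 1, 2 or 7 alone it was 57.4%, 85.1% or 69.1%. All 17 genes, chosen for a high control level, stood below that level. Single unresponsive cells ran from 856 to 6086 CPM with a median of 2891 CPM, reprogrammed cells from 0 to 2111 CPM with a median of 208 CPM, and control cells from 707 to 20867 CPM with a median of 6755 CPM. All 15 unresponsive cells were inside the control range, and 11 of 15 were above the highest reprogrammed cell. The choice of genes and clusters partly set this separation as well.

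The resident level was below that of the control cells of the same cluster in each of the 4 clusters, at 3620 against 8122 CPM in cluster 0, 2492 against 5990 CPM in cluster 3, 2584 against 3365 CPM in cluster 4, and 4884 against 5574 CPM in cluster 6. Fxyd6 was at 641 CPM in unresponsive, 85.9 CPM in reprogrammed and 1165 CPM in control cells, and Elovl1 at 667, 44.4 and 1030 CPM. Mylk was at 165.98, 24.4 and 565 CPM, and Ppp1r1b at 55.3, 9.27 and 423 CPM. Plekhd1 came closer to control, at 142.7 CPM against 172.1 CPM, with 0.842 CPM in reprogrammed cells, in 6 of 15 unresponsive cells. Over the 17 genes the percent of control ran from 0 to 94.4% with a median of 45.5%. The gene at 0 was Spp1, for which 1 control cell held 82% of the UMIs.

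**Figure D3:**
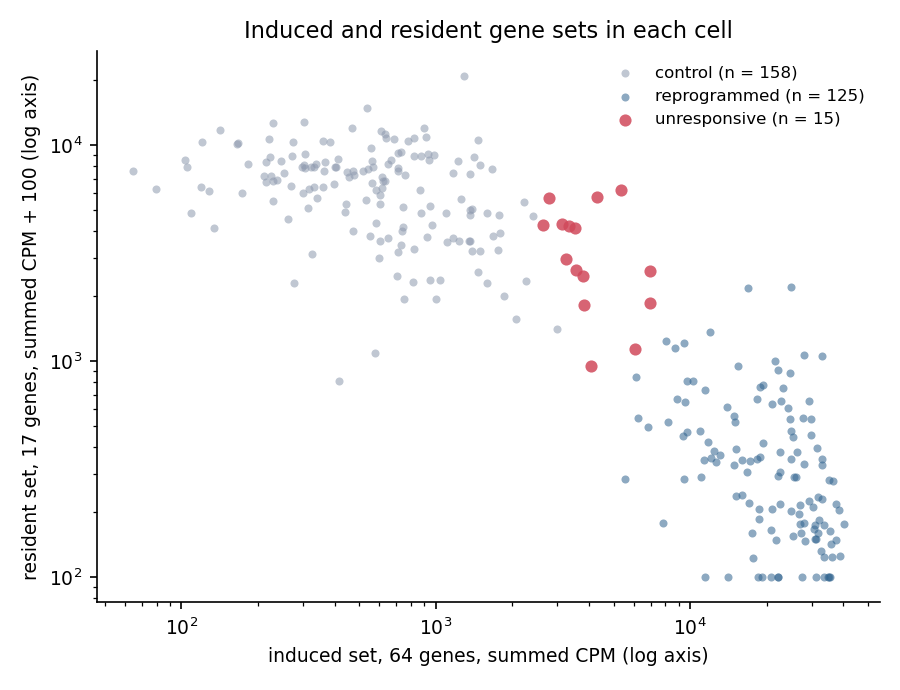
Each point is a cell, with the summed CPM of the 64 induced genes on the x axis and of the 17 resident genes plus 100 on the y axis, both log axes. The 15 unresponsive cells (red) lie between control (grey) and reprogrammed cells (blue), at 2645 to 6958 CPM of the induced set.

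Because all GAP wells were handled in company with wells rich in these transcripts, the low levels were set beside measures of RNA carried from well to well. Across the GAP cells, 5 genes had at least 100 UMIs in 1 cell and at most 3 UMIs in all cells of the other letter, all 5 in letter C and from 3 cells. For 4 of them no other cell of the letter had 10 UMIs, so most of the other UMIs may be set beside that 1 cell. Tff2, a secreted mucosal peptide, stood at 5659 CPM in its top cell and had 9 UMIs in all, spread over the other 91 cells of the letter. The mucin Muc5b had 432 UMIs in the same cell and 70 UMIs in others, in 46 cells with at most 4 each. Hbb-bs, a haemoglobin chain, had 284 UMIs in its top cell and 75 UMIs in 41 others, and the dividing-cell gene Mki67, at 3628 CPM in its top cell, had 29 UMIs in others. The remaining gene, the mucin Muc16, had 3 other cells with 10 UMIs or more and was left out of this range. The UMIs found in the other cells were thus 7.32% to 26.4% of those in the top cell. Few UMIs in letter D were a condition of the choice: Muc5b had 2 there and Hbb-bs had 1. Control cells were not part of the rule, and had 0 UMIs of Tff2 and Muc5b, 1 of Hbb-bs, 6 of Mki67 and 64 of Muc16. No gene in letter D met the rule, so letter D has no such measure.

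A comparable figure for the unresponsive cells is their mean UMI count as a percent of the mean over all cells of their letter, since a share that leaves every well and spreads evenly would appear at that percent in each. For Atoh1 it was 6.23% in letter C and 10.8% in letter D, for Pou4f3 8.91% and 4.85%, and for Gfi1 5.68% and 11.9%. For 22 induced genes at or under 1 CPM in control cells, the 3 allele genes included, it was 11.2% and 7.35%. Muc5b, with 432 UMIs in 1 reprogrammed cell, is among these 22 genes and also among the genes that gave the carry-over range. These letter C values, 5.68% to 11.2%, lie in or near the range of the 4 genes above. Other single genes lay outside that span. Kcnh6 was at 0% in letter C and 1.83% in letter D, Mfng at 5.14% and 0%, and Ccer2 at 14.9% and 3.99%. Letter D has no range to set its values beside. Carry-over was not separated from transcripts of the cell itself for these genes.

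Together the 22 genes stood at 594 CPM in unresponsive cells, 6294 CPM in reprogrammed cells and 3.77 CPM in control cells, which is 9.44% of the reprogrammed level (8.18% to 10.8%). The single-gene percents ran from 1.07% to 33.5% with a median of 9.58%. The interval of 19 of 22 genes held the pooled 9.44%, but most rest on few UMIs and are wide, such as 4.67% to 34.1% for Grp, so they do not show that the genes were even. The lowest were Kcnh6 at 1.07% and Mfng at 1.62%, whose intervals end at 5.99% and 9.03%. The highest was Tnfaip2 at 33.5% (19.3% to 54.1%), with 70.6% of its UMIs in 1 cell. Ptprq, a protein of the links between stereocilia, was at 10.6% (37.9 CPM) and Heg1, a membrane protein with EGF-like domains, at 8.18% (40.8 CPM). Of the 15 unresponsive cells, 14 stood above the highest control cell in the sum over the 22 genes, all chosen low in control cells. The sum ran from 123.97 to 1355 CPM over the 15 cells, and the highest control cell was at 196.7 CPM.

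**Figure D4:**
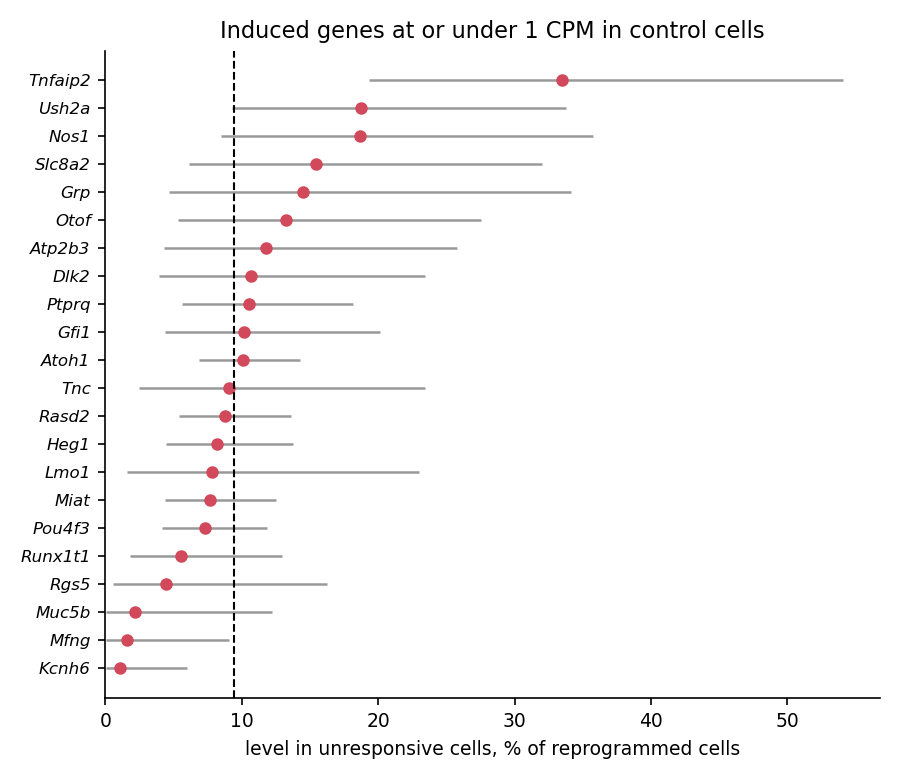
For each of the 22 induced genes at or under 1 CPM in control cells, the point is the pooled level in unresponsive cells as a percent of that in reprogrammed cells and the line is its exact 95% counting interval; the dashed line is the percent of the 22 genes together, 9.44%. Of the 22 intervals, 19 hold that value, and Tnfaip2 lies above it and Kcnh6 and Mfng below.

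Of all 64 induced genes, 45 were under 20%, 13 from 20% to 40% and 6 over 40%. Slc39a8 was at 27.4% (23.05% to 32.4%). The 6 highest were Ltbp1 (97.5%), the genes Gm10800 (74.6%) and Gm10801 (49%), the sterol exporter Abcg1 (67.3%), Heyl (66.02%) and the pseudogene Rpsa-ps10 (48.01%), all named here because of their values. Of the Ltbp1 UMIs, 67.05% came from 1 cell, and reads of Rpsa-ps10 may belong to its parent gene.

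Of 12 measured genes of the Notch pathway, 6 were within 2-fold of the reprogrammed level in unresponsive cells. Of the 12, 1 was at least 2-fold higher and 5 at least 2-fold lower (median -0.49 beside -0.13 over all genes). Over all 10180 genes those shares were 12.3% and 22.6%. The higher gene, Dtx1, had 5 UMIs in 1 cell and had passed the filter through unresponsive cells alone. Of the 5 lower, 4 had passed the filter through reprogrammed cells alone. Of 9 members measured against control cells, 4 stood 2-fold or more above and 1 as far below (median 0.86), where 12.5% and 15.6% of 9751 genes did. That comparison is between letters as well as genotypes.

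Heyl, a Notch target repressor, was at 387 CPM in unresponsive, 587 CPM in reprogrammed and 44.4 CPM in control cells. Its single unresponsive cells ran from 0 to 1208 CPM with a median of 407 CPM, near the reprogrammed median of 468 CPM, while the control median was 0. It had a UMI in 13 of 15 unresponsive cells, 98.4% of reprogrammed cells and 29.7% of control cells. Pooled, and without weighting for cluster makeup, it was 8.72-fold above control (6.86 to 11.1). The level was 364 CPM in letter C and 406 CPM in letter D, and the unresponsive mean was 68.8% and 59.2% of the mean of its letter. The part of carry-over in this level was not tested. The groups overlapped in single cells, since the highest control cell stood at 1397 CPM.

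Hey1, a related target, was at 253 CPM in unresponsive, 133.7 CPM in reprogrammed and 22.4 CPM in control cells. Pooled it was 11.3-fold above control (8.24 to 15.6), again without weighting for cluster makeup. It had a UMI in 9 of 15 unresponsive cells and 16.5% of control cells. Its level was 430 CPM in letter C and 114.4 CPM in letter D, so it was above reprogrammed cells in letter C (149.3 CPM) and near them in letter D (120 CPM). Lfng was at 75.7, 99.4 and 15.1 CPM, the ligand Jag1 at 186, 235 and 90.3 CPM and the receptor Notch1 at 478, 534 and 276 CPM in unresponsive, reprogrammed and control cells. The 5 lower members were Mfng, Hes5, Notch2, Notch3 and Rfng. Hes5 had 2 UMIs in unresponsive cells and was at 24.4 CPM in reprogrammed cells, and Notch3, a receptor, had 1 UMI against 14.3 CPM. The receptor Notch2, at 84.4 CPM, was below both reprogrammed (175.2 CPM) and control cells (153.8 CPM). Rfng, a sugar transferase related to Lfng, had 0 UMIs against 12.1 CPM in reprogrammed and 20.9 CPM in control cells.

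**Figure D5:**
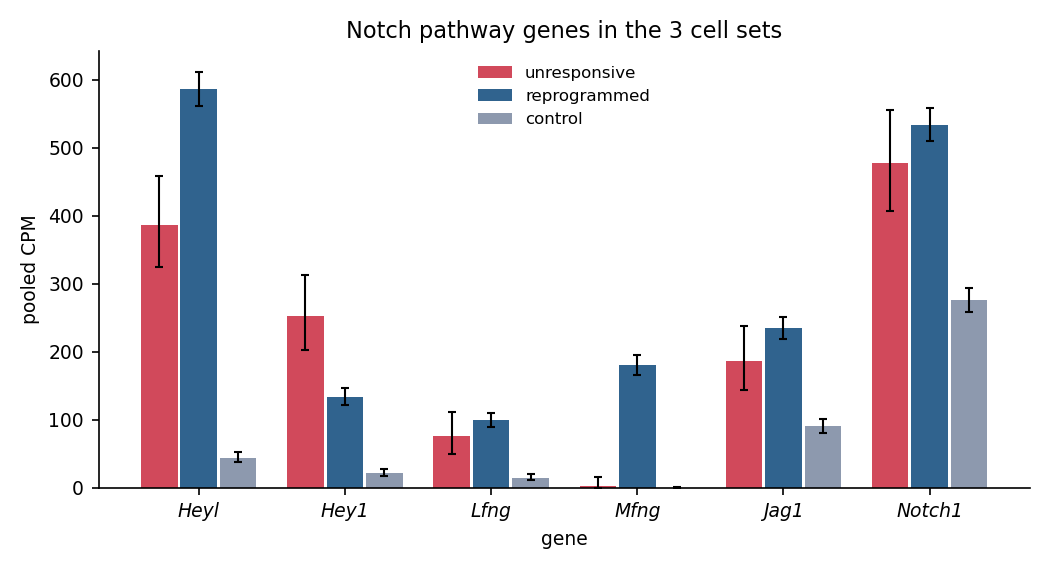
Bars give the pooled CPM of 6 Notch pathway genes in unresponsive (red), reprogrammed (blue) and control cells (grey), with exact 95% counting intervals. Heyl at 387 CPM and Hey1 at 253 CPM in unresponsive cells stand above 44.4 and 22.4 CPM in control cells, while Mfng is high in reprogrammed cells alone of the 3 sets.

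Set against control cells of the same clusters over all genes, 1221 of 9751 genes (12.5%) were 2-fold or more above control in unresponsive cells and 1522 (15.6%) as far below it. The 8 genes highest above control were Ccer2, Atoh1, Tmem255b, Pou4f3, Ptprq, Heg1, Otof and Gfi1, all at 6.02-fold to 13.7-fold higher levels in reprogrammed cells again. The hair bundle list had 9 of 20 measured genes at least 2-fold above control and 1 below (median 0.66), and the synapse list 5 of 12 above and 2 below (median 0.80). Of those above control, 6 of 9 and 4 of 5 had passed the filter through unresponsive cells alone. The fate list had 0 of 5 genes at a 2-fold difference (median 0.24). The genes highest in control cells had 0 UMIs in unresponsive cells. Igf2, a growth factor, was at 83.01 CPM in control cells and 19.9 CPM in reprogrammed cells, and Tcap, a sarcomere protein, at 49.6 and 0.562 CPM. Dedd2, Ppp4c, Carm1, Fbl, Kif21b and Asb8 made up the rest at 37.2 to 56.02 CPM in control cells.

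Other lists bear on the state of the cells. Of 13 immediate early and dissociation stress genes, 1 was at least 2-fold lower and 0 higher than in reprogrammed cells (median -0.13), and 4 were lower than in control cells (median -0.86). Fos was at 862 CPM in unresponsive, 935 CPM in reprogrammed and 1222 CPM in control cells. Mitochondrially encoded genes summed to 14210 CPM in unresponsive, 12772 CPM in reprogrammed and 13770 CPM in control cells, with 0 of 6 at a 2-fold difference. Of 6 measured p53 and apoptosis genes, 3 were at least 2-fold lower than in reprogrammed cells and 0 higher (median -0.68), where 22.6% and 12.3% of 10180 genes were. Of the 3, 1 had passed the filter through reprogrammed cells alone, and the median ran from -1.38 to 0.45 over alternative settings. Cdkn1a, the p53 target p21, was at 61.2, 263 and 104.2 CPM in unresponsive, reprogrammed and control cells.

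Neuron, leukocyte, endothelial, pericyte, glial and erythroid markers were scarce in unresponsive cells. The 8 neuron markers had 0 UMIs there. The 8 leukocyte markers summed to 5.82 CPM, at 0 to 45.2 CPM in single cells, with Ptprc, Cd74 and Csf1r at 0. The 7 endothelial and pericyte markers also summed to 5.82 CPM, with Pecam1, Kdr and Pdgfrb at 0, and the 8 glial markers to 40.8 CPM. The 5 erythroid markers summed to 34.9 CPM, all in letter C, and the 6 fibroblast markers to 451 CPM. Of that 451 CPM, Lum alone gave 440 CPM in 5 cells, and control cells held Lum at 323 CPM. Dcn had 0 UMIs. The 10 stria vascularis genes summed to 533 CPM in unresponsive, 624 CPM in reprogrammed and 716 CPM in control cells. The 5 Reissner membrane genes summed to 393, 190 and 229 CPM in that order, with Wnt5a alone at 376, 130 and 218 CPM.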

How the data were processed

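The measurements were UMI counts of exons per gene in 360 single cells prepared in 96-well plates with SMART-MATQ. The authors deposited whole-number counts for 48440 genes, and a table that gives a cluster to 341 cells. Reads were aligned to mm10 with STAR and counted with HTSeq, per the submitters' processing notes. Tool versions, the annotation release, the handling of strand and the clustering settings were not given in the sources used here. Cells were pooled by set, and counts were summed and divided by the summed UMIs (CPM). A gene was measured at 10 CPM in either set, a pseudocount of 1 CPM was added for log2 ratios, and a 2-fold difference was counted. Ratio intervals are exact conditional binomial, level intervals exact Poisson and shares Clopper-Pearson, all at 95%. They cover counting error only. Whether 1 UMI is 1 molecule depends on collapsing steps not given in the sources used here.

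Genes named as highest or lowest had 20 CPM or more in the higher set, a UMI in at least 5 of its cells, no cell with more than 1 in 3 of its UMIs, and the same direction in each letter. The 14 at each end were taken for unresponsive against reprogrammed cells and the 8 at each end against control cells, without predicted Gm and Rik genes. From each gene list up to 4 members with the most UMIs were named (8 for the bundle list), and 6 from each gene set. Hey1, Lfng, Mdk, Slc26a4, Otog, Lrp2, Mfng, Tnfaip2, Abcg1, Ltbp1, Hes5, Notch2, Notch3, Rfng, Bmp4, Sparcl1, Tectb, Col9a2, the carry-over genes and those of the other observations were named after their values were seen or from an earlier account of these data. The members and gene lists were chosen with earlier results of these data known. No 2 cells had identical columns, no sample column was left unused, and no doublet caller was run. No cell was filtered beyond the authors' own cluster assignment. Scripts were tested on simulated data. Python 3.11.15, pandas 2.3.3, scipy 1.17.1 and edgeR 4.0.16 (TMM factors, as an alternative scaling) were used. RefSeq promoter windows are of build GRCm38.p6.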

Additional observations from a re-analysis of the deposited data

Results flagged for a closer look

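In 30 checks of groups of 4 to 10 unresponsive cells, 3 showed a cell far from the others. The cutoff's nominal rate of about 1 in 20 does not apply here. The same cells were checked by letter and by cluster, on measures that overlap. The cell in well 4 of letter C had 6958 CPM of the 64 induced genes, against 3818 CPM in the next of the 5 unresponsive cells of that letter. It was also the cell with the most Ccer2, and stood in cluster 3. The cell in well 36 of letter D had 1137 CPM of Atoh1, Gfi1 and Pou4f3 together, against 313 CPM in the next of the 10 unresponsive cells of its letter, and was likewise far from the other 4 unresponsive cells of cluster 3. It rested on 11 UMIs, 10 of them Atoh1, in a library of 9671 UMIs.

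GAP cells outside the compared clusters carried the 3 allele genes as well, at 142.4 CPM in cluster 5, 126.9 CPM in cluster 8 and 2333 CPM in the 17 cells without a cluster, against 0.29 CPM in control cells. Clusters 5 and 8 were thus near the 163.1 CPM of unresponsive cells. Every one of their 13 and 10 cells had a UMI of at least 1 of the 3 genes.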

How the results depend on the processing

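No paired analysis was possible because each genotype is 1 sample and the numbers in the labels name wells, not pairs of samples. Gene sets were kept fixed except where the reprogrammed clusters or the set thresholds changed. The share of unresponsive cells stayed within its interval in each letter and over all GAP cells with a cluster. The Atoh1 fold, 9.93, was 14.9 with cells of at least 15000 UMIs, 6.35 as a mean over cells, 5.40 against cluster 7 and 17.7 without letter D. Genes at least 2-fold higher in reprogrammed cells, 2299, numbered 755 at a 50 CPM filter, 5435 with no filter and 3573 with unresponsive cells of cluster 0. Genes higher in unresponsive cells, 1253, numbered 610 at a 50 CPM filter, 760 with a pseudocount of 10 CPM and 1985 against cluster 7. Against control cells, the 1221 higher genes became 439 at 50 CPM, 1962 with no filter and 664 with a pseudocount of 10 CPM. The 1522 lower genes became 400, 3896 and 934 in that order, 2927 with unresponsive cells of cluster 0 and 2551 without letter D. The induced level, 18.01% of reprogrammed cells, was 19% as a mean over cells, 14.3%, 16.2% and 14.9% against clusters 1, 2 and 7, and 13.9% with sets at 50 CPM and 20-fold. It was 16.1% in cluster 0, 19.01% in clusters 3, 4 and 6, and 16.4% without the cell richest in induced genes. The resident level, 48.5% of control cells, was 57.4%, 85.1% and 69.1% with sets chosen against clusters 1, 2 and 7, 42.7% with sets at 50 CPM and 20-fold, 55.4% with weighted control clusters, 54.6% in cluster 0, 45.2% in clusters 3, 4 and 6, 52.6% without letter C and 43.2% without letter D. Of 13 list medians at least 1 from 0, 206 of 214 alternative values kept the sign, though not the size: the fate list against reprogrammed cells ran from -3.87 to -0.81, the bundle list from -2.92 to -0.97 and the synapse list from -3.30 to -0.48, each nearest 0 against cluster 7. The other 8 came from lists of few detected genes. Cell cycle against control (1.72) became -0.64 without letter C and -0.074 with no filter. Fibroblast against control (-2.29) became 1.03 without letter C and 0.44 both at 50 CPM and with no filter. Leukocyte against control (-3.90) became 0.80 with no filter, and erythroid against reprogrammed (-2.07) became 1.19 and 1.86 against clusters 1 and 2. TMM and median-of-ratios factors moved the log2 ratios by 0.03 and 0.04 against reprogrammed and by -0.07 and -0.04 against control cells. The causes of the changed values were not tested. With 15 cells of 343415 UMIs, genes under about 8.74 CPM in the unresponsive set cannot be told from 0.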

Other observations

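Some genes stood above both references in unresponsive cells. With a rule chosen after the values were seen (100 CPM or more and at least 3-fold above both reprogrammed and control cells), 23 genes qualified, of which 6 were in at least 5 cells with no cell over 1 in 3 of their UMIs. Those 6 were Ifitm3, an interferon-induced membrane protein, Prkcdbp, Prune2, Prdm12, Fosl2 and Med8. Among the others, Scg2 had 100% and Tbx3 98.5% of its UMIs in 1 cell. The 23 genes are given without a share of all genes at that level and without a count in the opposite direction. Ifitm3 was at 504 CPM in unresponsive cells, 131.4 CPM in reprogrammed cells and 120 CPM in control cells, with UMIs in 11 of 15 cells, with 384 CPM in letter C against 598 CPM in letter D. The interferon-induced genes Ifi27l2a and Ifit3 were also among the 23, at 419 and 133.9 CPM, but 58.3% and 45.7% of their UMIs came from 1 cell. Gdf11, a secreted factor of the TGF-beta family, was at 769 CPM against 180 and 70.5 CPM, with 45.5% of its UMIs in 1 cell.

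Of 5317 genes at 30 CPM or more in both reprogrammed and control cells, 7 had 0 UMIs in the unresponsive set. Ccnd1, the G1 cyclin, was at 99.01 CPM in unresponsive and 82 CPM in reprogrammed cells against 3.19 CPM in control cells. It had UMIs in 5 of 15 unresponsive cells, 58.8% of them in 1 cell, all in letter C. The 13 GAP cells of cluster 5 and 10 of cluster 8 had 21.7% and 33.3% of the reprogrammed level of the induced set, and 8.97% and 20.8% of the control level of the resident set.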
